A study of Mus musculus with 10 samples.

Results

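Interferon-stimulated genes are the genes that cells switch on after an interferon binds its receptor. Here they are a list of 49 mouse genes, chosen by name with earlier results of these data known. As a whole the list was therefore described and not tested. Its junctions are those lying in the RefSeq gene body on mm10 or within 5 kb of either end. The 49 genes stand among 49939 RefSeq genes on chromosomes 1 to 19, X and Y, of which 21883 are protein-coding. All 49 symbols were found in the gene table. Across the 10 libraries the 49 genes held 87 junctions, of which 81 came from the 3 libraries that received etoposide without DRB. At least 1 junction was found in 22 of the 49 genes, and 27 had 0.

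The assay was high-throughput genome-wide translocation sequencing, which starts from a bait DNA break and reads the distant break, called the prey, to which that bait end was joined. The bait was a zinc finger nuclease break on mouse chromosome 6, placed by the median last aligned bait base at position 41554932 on mm10. All 10 libraries came from Abelson-transformed pre-B cells of strain C57BL/6 and genotype LIG4-/-, so every cell lacked the ligase of classical end joining. All cells were arrested in G1 with imatinib for 48 h and carried the zinc finger nuclease, induced with doxycycline at 1 µg/ml. The untreated group (n = 2 libraries) got nothing more, and the etoposide group (n = 2) got 50 µM etoposide for 2.5 h, then 12 h in fresh medium. Single libraries received IFN alone, IFN with etoposide, DRB alone or DRB with etoposide, with DRB given 2 h ahead and the drugs kept on. The last 2 libraries had breaks made by the nuclease AsiSI, induced with doxycycline and, 20 h later, 1 µM tamoxifen, with and without DRB. The labels write only IFN, with no type, dose or time, and name no separate clones or cultures. The series title gives the question as how transcription and chromosome architecture relate to breaks made through topoisomerase II.

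Interferons act through receptor-bound Janus kinases, which activate the STAT proteins. Complexes that hold STAT2 and IRF9 bind the interferon-stimulated response element near their target genes and start transcription there. The products include enzymes that attach or remove the small protein ISG15, sensors and destroyers of viral RNA, parts of antigen presentation, and inhibitors that end the signal. Etoposide traps topoisomerase II on DNA after it has cut both strands, and DRB blocks transcription elongation. No expression was measured in these libraries, so whether any of the 49 genes was transcribed is not known here.

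The libraries held 2044 to 13425 junctions each. Prey junctions, those over 1 Mb from the bait, numbered 169 to 10309 per library once antigen receptor loci were left out. Junctions in the immunoglobulin kappa locus, which is rearranged at the pre-B stage, numbered 201 to 1730 per library. Shares and counts per 1000 prey below have prey outside antigen receptor loci as their denominator. The limma values instead take both gene counts and library size from all prey. Read names placed the libraries on 4 sequencing runs: the IFN with etoposide library shares its run with etoposide replicate 2 and not with replicate 1, which the labels name as its control. Depth was uneven between the etoposide replicates, at 10309 prey in replicate 1 and 3296 in replicate 2, against 3288 with IFN and etoposide. With 2 libraries in a group the p-values measure only the spread between these libraries, which may be technical.

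The sequences that follow show what was read, beginning with the promoters of 3 of the 5 list members on chromosome 6 and of Stat2. Each is RefSeq sequence on GRCm38.p6, 300 bases running 5′ to 3′ on the plus strand from 250 bases before an annotated start to 50 after it. Capitals mark a match to the core of the interferon-stimulated response element, searched on both strands as GAAANNGAAA and TTTCNNTTTC. The windows are chr6:34862896-34863195 for Tmem140, chr6:127446590-127446889 for Parp11, chr6:57580742-57581041 for Herc6 and chr10:128270248-128270547 for Stat2.
Tmem140: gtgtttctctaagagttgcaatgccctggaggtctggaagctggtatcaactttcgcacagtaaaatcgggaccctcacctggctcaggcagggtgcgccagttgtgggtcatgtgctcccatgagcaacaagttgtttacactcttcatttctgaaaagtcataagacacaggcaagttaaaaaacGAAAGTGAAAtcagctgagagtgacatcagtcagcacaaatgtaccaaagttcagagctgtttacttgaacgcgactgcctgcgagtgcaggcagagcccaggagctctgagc
Parp11: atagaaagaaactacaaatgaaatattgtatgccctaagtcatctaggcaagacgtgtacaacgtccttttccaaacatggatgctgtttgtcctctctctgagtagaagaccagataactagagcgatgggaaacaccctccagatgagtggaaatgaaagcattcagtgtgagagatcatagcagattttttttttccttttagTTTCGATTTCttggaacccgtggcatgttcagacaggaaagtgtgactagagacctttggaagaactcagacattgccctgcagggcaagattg
Herc6: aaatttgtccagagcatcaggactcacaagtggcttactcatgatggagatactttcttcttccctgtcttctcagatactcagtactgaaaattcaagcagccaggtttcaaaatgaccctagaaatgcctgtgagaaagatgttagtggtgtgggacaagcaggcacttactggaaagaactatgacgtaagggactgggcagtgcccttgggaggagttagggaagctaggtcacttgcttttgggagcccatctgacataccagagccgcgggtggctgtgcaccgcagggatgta
Stat2: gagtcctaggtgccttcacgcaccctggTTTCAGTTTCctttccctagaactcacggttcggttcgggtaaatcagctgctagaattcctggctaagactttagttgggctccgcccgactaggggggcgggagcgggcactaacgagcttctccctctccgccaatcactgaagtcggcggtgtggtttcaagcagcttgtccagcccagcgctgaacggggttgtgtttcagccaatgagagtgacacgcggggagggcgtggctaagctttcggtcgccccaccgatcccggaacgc

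A promoter window was found for 40 of the 49 genes, in 50 windows because some genes have several starts. The motif was in 17 of the 50 windows (34.0%), in 16 of the 40 genes, against 1131 of 32851 windows of the same length over all genes (3.44%). Tmem140 and Stat2 held 1 match each, as did Parp11, while the Herc6 window held none. Of the 10 genes with a window and at least 1 junction in the IFN with etoposide library, 4 held the motif. The Herc6 and Parp11 windows each held 1 junction, both from etoposide libraries. A match in these letters is a description of the sequence and does not show a bound factor.

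The second set of sequences is the junctions themselves, shown because they carry the highest concentration of junctions in the list. Each gives the last 20 bait bases, then in capitals the microhomology, bases that could belong to either side, and then 30 prey bases. The first 5 are all from the IFN with etoposide library and lie in Usp18 on the plus strand, at chr6:121261398, chr6:121261462, chr6:121261520, chr6:121261545 and chr6:121261675. The number in each name is the distance in bases from the lower annotated end of the gene.
Usp18 junction 15492: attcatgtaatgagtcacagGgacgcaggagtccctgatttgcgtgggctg
Usp18 junction 15556: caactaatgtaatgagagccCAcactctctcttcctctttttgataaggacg
Usp18 junction 15614: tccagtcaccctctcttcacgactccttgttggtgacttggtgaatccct
Usp18 junction 15639: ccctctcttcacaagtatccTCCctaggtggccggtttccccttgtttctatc
Usp18 junction 15769: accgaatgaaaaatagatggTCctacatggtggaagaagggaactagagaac

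The 3 Ifit2 junctions are the next set, the largest number for a list gene outside chromosome 6 in 1 library, and come from the same library. They lie on chromosome 19 at positions 34556064, 34570697 and 34573510, within an annotated body of chr19:34550550-34576534.
Ifit2 junction 5514: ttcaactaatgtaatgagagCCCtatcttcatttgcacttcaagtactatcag
Ifit2 junction 20147: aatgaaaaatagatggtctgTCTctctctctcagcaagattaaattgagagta
Ifit2 junction 22960: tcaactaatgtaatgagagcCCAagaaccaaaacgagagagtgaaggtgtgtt
The 5 Usp18 reads have 5 distinct bait ends and 5 distinct prey positions, and their microhomologies run from 0 to 3 bases.

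Usp18 was the 1 list gene whose junction share differed between libraries after adjustment over all genes. USP18 removes ISG15 from proteins and also shuts down signalling at the type I interferon receptor. Its body spans chr6:121245906-121270917. It held 11 junctions with IFN and etoposide, 2 in etoposide replicate 1, 2 in etoposide replicate 2, and 0 in each of the other 7 libraries. The IFN with etoposide library stood above both etoposide libraries, which had equal counts at unequal depth. Per 1000 prey the values were 3.35 with IFN and etoposide, 0.194 in etoposide replicate 1 and 0.607 in replicate 2. Over both etoposide libraries together, 11 of 3288 prey against 4 of 13605 gave a share 11.4-fold higher. Fisher's exact test, two-sided, gave an odds ratio of 11.4 (95% interval 3.38 to 49.2), p = 9.36e-06 and a Benjamini-Hochberg adjusted p of 0.00597. Of 638 genes with at least 5 junctions, 0.157% were called higher, which is Usp18 alone, and 0% lower; 17 had an unadjusted p under 0.05. The test sets 1 library against 2, so it compares libraries rather than conditions and covers counting error only. Against etoposide replicate 2 alone, the library of the same run, the ratio of shares was 5.51 (odds ratio 5.53, 1.20 to 51.4). The same exact test gave p = 0.0128 and adjusted p = 0.914, so the call was lost. It was also lost with the minimum lowered to 1 junction (adjusted p = 0.0798).

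**Figure D1:**
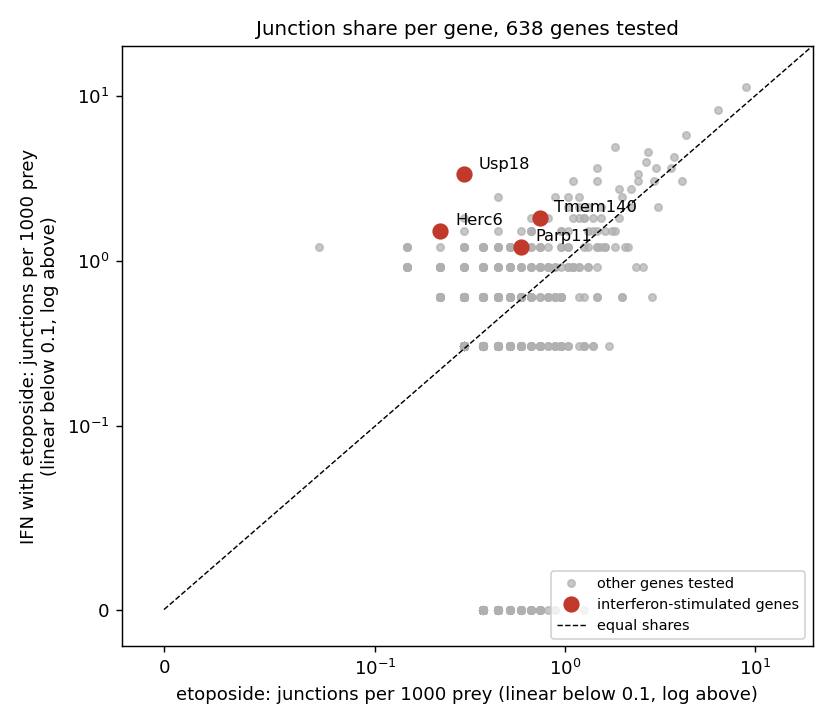
Junctions per 1000 prey in the IFN with etoposide library (vertical) against both etoposide libraries together (horizontal) for the 638 genes tested, on axes that are linear below 0.1 and logarithmic above; each point is a gene and the dashed line marks equal shares. The 4 list genes tested, Usp18, Herc6, Tmem140 and Parp11, lie above the line, with Usp18 at 3.35 against 0.294.

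The Usp18 junctions of the IFN with etoposide library fell at 11 distinct positions. Within the gene body were 7 of them, and 4 lay below its lower end, at -519, -936, -3505 and -3891 bases from it. The prey read ran toward higher coordinates in 10 of the 11, as it did in all 4 junctions of the etoposide libraries. A stretch of 278 bases, chr6:121261398-121261675, held 5 of the 11, between 15.5 and 15.8 kb from the lower end of the gene. The other 9 libraries had 0 junctions in that stretch, which was picked out after the positions were seen. A long noncoding RNA gene, Gm44148, is annotated over the same stretch, and the reads cannot be assigned to either gene. When junctions of 1 library within 300 bp of each other were counted once, Usp18 went to 7 against 4, a ratio of 6.84 with p = 0.00220 and adjusted p = 1.00 by Fisher's exact test. With the body alone it stood at 7 against 3, a ratio of 9.65 and an adjusted p of 0.221 by the same exact test.

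**Figure D2:**
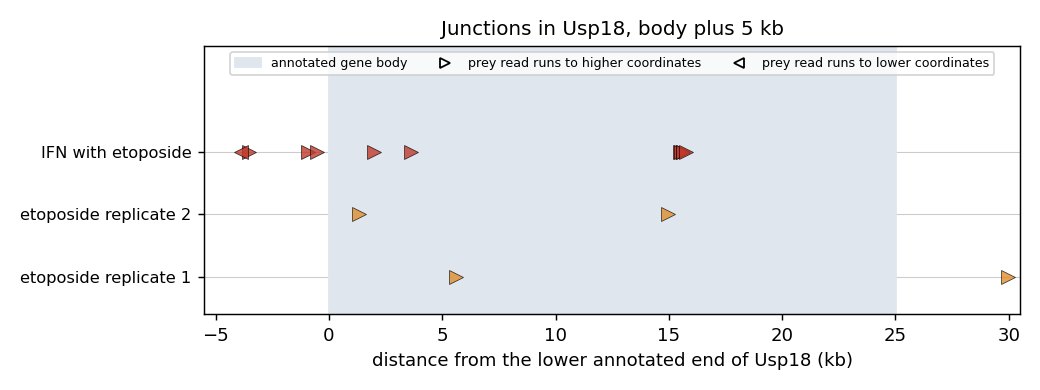
Positions of the Usp18 junctions in the 3 libraries with etoposide and no DRB, in kb from the lower annotated end of the gene; the shaded band is the gene body and each triangle is 1 junction, pointing the way the prey read runs. The 5 junctions at 15.5 to 15.8 kb in the IFN with etoposide library overlie each other, and 10 of its 11 junctions point to higher coordinates.

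The surroundings of Usp18 were counted as well. In the 100 kb on each side beyond the 5 kb flank, the IFN with etoposide library had 9 junctions, etoposide replicate 1 had 9 and replicate 2 had 4. Per 1000 prey those are 2.74, 0.873 and 1.21. The surroundings and the gene were both highest in the IFN with etoposide library. No test was made on the flanks.

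Among the 4 list genes with at least 5 junctions, Herc6 came next in the size of its ratio. HERC6 is the main ligase that attaches ISG15 to proteins in mouse cells, the reverse of what USP18 does. Its body is chr6:57580992-57665136. It held 5 junctions with IFN and etoposide, 1 in etoposide replicate 1, 2 in replicate 2 and 1 in the DRB library, with 0 elsewhere. All 5 were inside the body, between 4752 and 82670 bases from its lower end. The 3 etoposide junctions were inside it too, at 37046 bases in replicate 1 and at 37 and 738 bases in replicate 2. The share was 6.90-fold higher than in the etoposide libraries (odds ratio 1.34 to 44.5), with p = 0.00921 and adjusted p = 0.840 by Fisher's exact test. Herc6 therefore did not pass, and the 3 libraries rest on 8 junctions in all.

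Tmem140, which encodes a transmembrane protein, had the most junctions of the list over all libraries. It held 6 in etoposide replicate 1, 4 in replicate 2 and 6 with IFN and etoposide, with 0 in the other 7 libraries. Its body is short, chr6:34863146-34874946, and next to another gene: 7 of the 16 junctions lie also in the coding gene Cyren. Against both etoposide libraries the share was 2.48-fold higher (odds ratio 0.742 to 7.55), with p = 0.104 and adjusted p = 1.00 by Fisher's exact test. Cyren, whose protein modulates end joining, had 8 junctions against 6 in the same comparison, a ratio of 5.52 with adjusted p = 0.634 by the exact test.

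Parp11, a mono-ADP-ribosyltransferase gene at chr6:127446830-127514233, was the 1 list gene with a junction in both untreated libraries. It held 1 in each untreated library, 6 in etoposide replicate 1, 2 in replicate 2, 4 in the IFN with etoposide library and 0 elsewhere. The share with IFN and etoposide was 2.07-fold higher than with etoposide (odds ratio 0.456 to 7.73; Fisher's exact p = 0.266, adjusted p = 1.00). Samd9l, an antiviral and growth-restraining gene at chr6:3372257-3399571, had 1 junction in etoposide replicate 1, 2 with IFN and etoposide, and the 1 list junction of the IFN library. It had too few junctions to be tested.

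Of the 4 list genes tested, all 4 had a higher share with IFN and etoposide, with a median log2 ratio of 2.05. Over the 504 tested genes with junctions on both sides the median log2 ratio was 0.0489, and 310 were higher. The 4 are on the bait chromosome and passed the minimum of 5 junctions partly through the library in which they are high, so the median describes these 4 and not the list.

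Taking the 5 chromosome 6 genes as a set, their share of chromosome 6 prey was 0.413% in etoposide replicate 1 (16 of 3877; exact Clopper-Pearson 95% interval 0.236 to 0.669). It was 0.800% in replicate 2 (10 of 1250; 0.384 to 1.47) and 2.18% with IFN and etoposide (28 of 1283; 1.45 to 3.14). The IFN with etoposide value was 3.60-fold the etoposide mean of 0.606% ± 0.274 (SD, n = 2), and 2.73-fold that of replicate 2, from its own run. Its interval touches that of replicate 2 and lies above that of replicate 1. The same 5 genes had 1 junction each among 60 and 123 chromosome 6 prey in the untreated libraries, 1 of 69 with IFN alone and 1 of 61 with DRB alone. Those shares, 1.67%, 0.813%, 1.45% and 1.64%, rest on 1 junction each and cannot be ordered. The 3 remaining libraries had 0: DRB with etoposide with 0 of 92, which allows up to 3.26%, AsiSI with 0 of 234 (up to 1.28%) and DRB with AsiSI with 0 of 333 (up to 0.901%). Intervals and limits cover counting error only, and not the choice of the list with earlier results known.

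Usp18 accounts for a large part of that set. Without it the 4 other genes held 0.361% of chromosome 6 prey in etoposide replicate 1, 0.640% in replicate 2 and 1.33% with IFN and etoposide (17 of 1283; 0.774 to 2.11). The last is still the highest of the 3, but its interval overlaps that of replicate 2 (0.277 to 1.26). Over their length, the 5 genes were joined at 1.42, 2.71 and 7.49 times the density of coding genes on chromosome 6 in the same order of libraries. On 1 junction each, the ratio was 8.02 and 3.35 in the untreated libraries, 5.75 with IFN alone and 7.78 with DRB alone. It was 0 with DRB and etoposide, AsiSI, and DRB with AsiSI. Protein-coding genes as a whole took 76.9%, 78.0% and 77.1% of chromosome 6 prey, so IFN with etoposide differed from the etoposide mean of 77.5% by less than the 0.749 points (SD) between its replicates.

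The 44 genes off chromosome 6 were hit sparsely. Their share of prey outside chromosome 6 was 0.171% in etoposide replicate 1 (11 of 6432; 0.0854 to 0.306) and 0.196% in replicate 2 (4 of 2046; 0.0533 to 0.500). With IFN and etoposide it was 0.599% (12 of 2005; 0.310 to 1.04). That is 3.27-fold the etoposide mean of 0.183% ± 0.0173 (SD, n = 2), 3.50-fold replicate 1 and 3.06-fold replicate 2. Its interval lies above that of replicate 1 and overlaps that of replicate 2, and does not cover how the list was chosen. Untreated replicate 1 had 0 of 616, which allows up to 0.487%, and replicate 2 had 1 of 247 (0.405%). IFN alone had 0 of 146, which allows up to 2.05%, so at this depth a share as high as that of IFN with etoposide was not detectable. DRB with etoposide had 0 of 162 (up to 1.85%), DRB 0 of 108 (up to 2.78%), AsiSI 1 of 698 (0.143%) and DRB with AsiSI 0 of 840 (up to 0.357%).

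**Figure D3:**
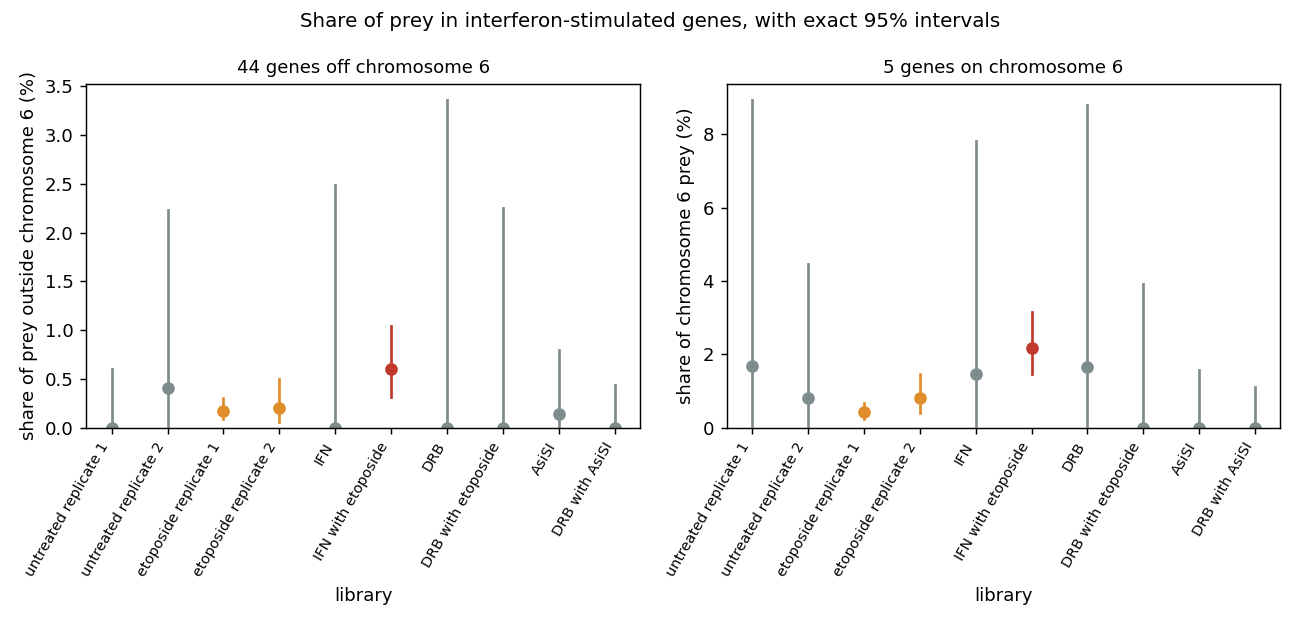
Share of prey in the list genes in each of the 10 libraries, off chromosome 6 (left, percent of prey outside chromosome 6) and on it (right, percent of chromosome 6 prey); points are library values and lines their exact 95% intervals. IFN with etoposide stands at 0.599% and 2.18%, and the etoposide libraries between 0.171% and 0.800%, while each of the other 7 libraries rests on 0 or 1 junction in each panel.

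Counted as genes, the same data read as follows. With IFN and etoposide, 8 of the 44 genes had at least 1 junction (18.2%), against 7.26% of the 20757 protein-coding genes off chromosome 6. In etoposide replicate 2, of nearly the same depth, it was 3 of 44 (6.82%) against 7.29%. In etoposide replicate 1 it was 9 of 44 (20.5%) against 17.7%. The list was therefore near the background in both etoposide libraries and above it with IFN, on 8 genes. Because the list was chosen with earlier results known, this describes it and is no test. On chromosome 6, 5, 4 and 5 of the 5 genes were hit in etoposide replicate 1, replicate 2 and IFN with etoposide, where 54.8%, 37.5% and 36.8% of coding genes were. Median body length was 15.0 kb for the 44 genes and 17.1 kb for coding genes off chromosome 6. On chromosome 6 it was 27.3 kb for the 5 list genes and 18.0 kb for coding genes.

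Of the 44, 17 had a junction in these 3 libraries, against 5250 of the 20757 protein-coding genes off chromosome 6. A junction with IFN and etoposide but none with etoposide alone was found in 7 of the 17 (41.2%), the reverse in 9 (52.9%), and both in 1 (5.88%). Over the 5250 protein-coding genes hit off chromosome 6 the same shares were 14.6%, 71.3% and 14.1%. Few genes of either set were thus hit under both treatments, and no test was made. The etoposide side pools libraries of 6432 and 2046 prey outside chromosome 6, against 2005 with IFN and etoposide, so the split is not at equal depth. Ifit2, whose protein binds RNA and restrains translation of viral messages, had 3 with IFN and etoposide and 0 in each other library. Ifih1, which encodes the RNA sensor MDA5, had 2 in that library and 1 in untreated replicate 2. Mx2, an antiviral GTPase gene listed as a transcribed pseudogene in this table, had 2. That at position 97564984 lies 4083 bases past its higher end, in the coding gene Tmprss2. The transcription factor genes Stat2, Irf1 and Irf7 had 1 each, as had Parp9, although the Irf7 junction lies also in the gene Phrf1. Slfn2, a schlafen gene, was the 1 shared gene, with 2 in etoposide replicate 2 and 1 with IFN and etoposide. With the minimum lowered to 1 junction, Fisher's exact test gave Ifit2 an unadjusted p of 0.00737 and an adjusted p of 1.00 over 8532 genes.

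The 9 genes hit with etoposide alone covered other roles. Socs1, which inhibits Janus kinases, and Epsti1 had 2 each in etoposide replicate 1. The ubiquitin ligase genes Rnf213 and Trim25 had 1 in each etoposide replicate. Oas3, which makes the activator of RNase L, had 1 in replicate 1 and 1 in the AsiSI library. Parp14, Rtp4, Psmb8 (an immunoproteasome subunit) and Cd274 (the checkpoint ligand PD-L1) had 1 each in replicate 1; that of Psmb8 lies also in Tap2, and that of Cd274 in Plgrkt. The deeper replicate 1 thus supplied 11 of the 15 junctions that etoposide alone gave off chromosome 6.

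The 27 genes with 0 junctions in all 10 libraries included well-known members of the response. They were Ifit1, Ifit3, Slfn5, Slfn8, Isg15, Isg20, Irf9, Oas2, Oasl1, Oasl2, Mx1, Rsad2, Cmpk2, Ddx58, Dhx58, Dtx3l, Eif2ak2, Adar, Bst2, Xaf1, Ifi35, Ifi44, Trim21, Tap1, Psmb9, Nlrc5 and Sp100. All 27 lie off chromosome 6. Ifit2 was thus hit while its family members Ifit1 and Ifit3 were not, on 3 junctions. Its annotated body is also longer, at 25985 bases against 9121 for Ifit1 and 5864 for Ifit3.

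**Figure D4:**
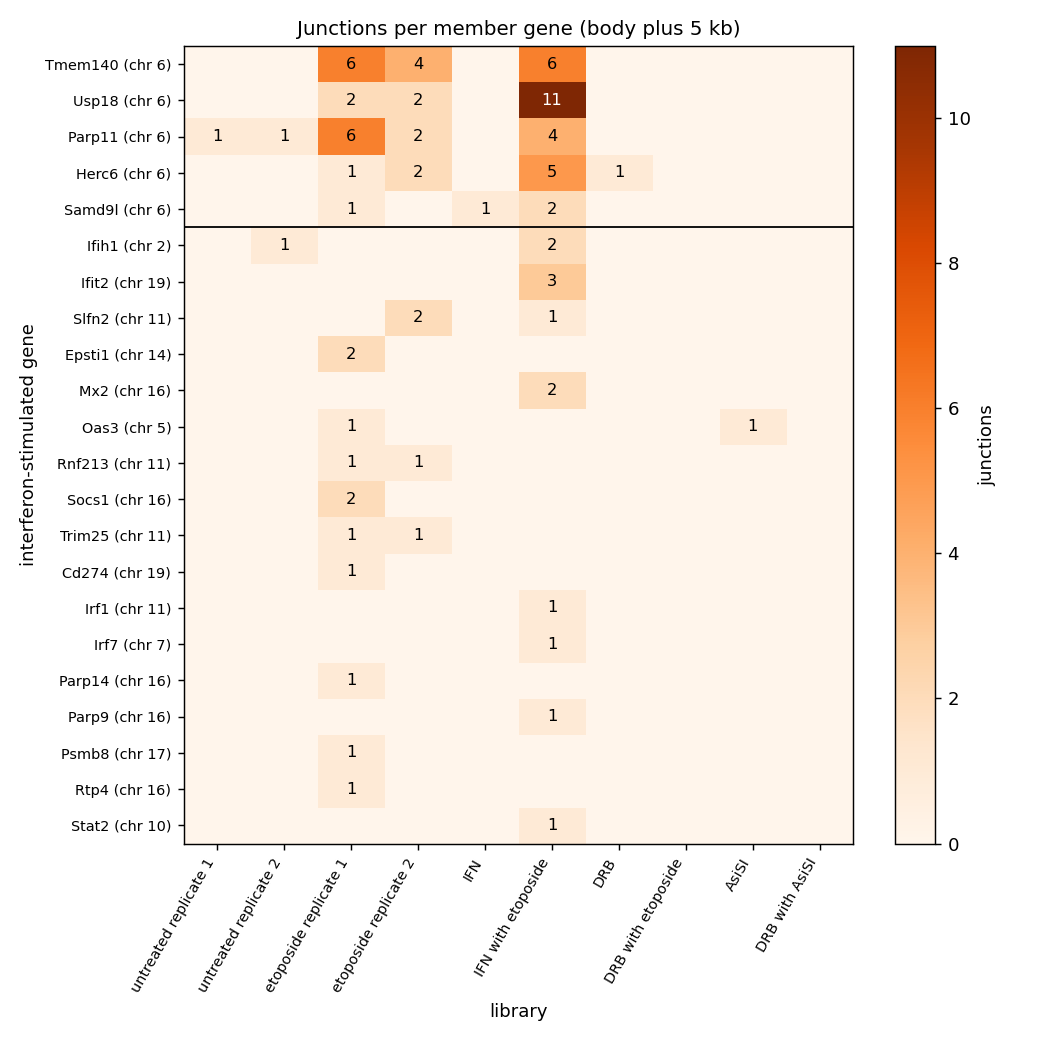
Junctions in each of the 22 list genes with at least 1 junction (vertical, the line parts chromosome 6 from the others) in each of the 10 libraries (horizontal); numbers and colour give the count and blank cells are 0. The highest cell is Usp18 with 11 in the IFN with etoposide library, and the 7 libraries without etoposide or with DRB hold 6 junctions in all.

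Scaled by the junctions within 1 Mb of the bait, a measure of how much bait was captured, the list was higher with etoposide in both pairs of libraries. Per 1000 such junctions it had 0.890 in untreated replicate 1 and 22.5 in etoposide replicate 1, and 0.379 and 3.49 in replicate 2. The IFN pair had 0.275 without and 12.4 with etoposide. Other prey was higher too, at 8583 against 601, 818 against 69.8 and 1010 against 59.0. DRB with etoposide had 0 list junctions where other prey was at 113 per 1000. Both replicate 1 libraries came from the same run, and within each treatment replicate 1 stood above replicate 2 on this scale.

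Etoposide against untreated was tested with limma and voom weights over 194 genes with at least 10 junctions. Gene counts here came from all prey, antigen receptor loci included, unlike those of the main Fisher's exact tests. Limma called 0% higher and 0% lower (0 of 194), and 81 had an unadjusted p under 0.05. Only Tmem140 and Parp11 of the list were tested. Tmem140 had a log2 difference of 1.06 ± 0.40 (SE) with an adjusted p of 0.103 by limma, and Parp11 one of -1.16 ± 0.26 with an adjusted p of 0.103. With library size from prey outside antigen receptor loci the values were 0.20 for Tmem140 and -1.98 for Parp11, and without etoposide replicate 2 that of Tmem140 was 0.28. These are differences in the share of prey, so Parp11, at 8 junctions with etoposide and 2 without, can have a negative value. With the replicate number as a block, limma gave Tmem140 0.87 (adjusted p = 0.223) and Parp11 -1.18 (adjusted p = 0.0564), and 67 of the 194 genes were called, neither of these among them.

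IFN alone against untreated gave no list gene to test: 14 genes had at least 5 junctions, of which 14.3% were called higher by Fisher's exact test, and none was on the list. IFN with etoposide against IFN alone had 65 genes, of which 6.15% were called lower and 0% higher. The 3 list genes tested, Usp18, Tmem140 and Herc6, each had 0 junctions among the 215 prey of IFN alone, and 0 were called. With so few prey on that side their counts of 11, 6 and 5 could not have been called higher. The comparison therefore says nothing about them.

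Positions along the genes were read for the 40 genes with an annotated start. In the etoposide libraries 13 of 35 junctions were within 2 kb of a start (37.1%; 21.5 to 55.1), against 12.6% of the searched length of these genes. By library it was 7 of 23 in replicate 1 (30.4%; 13.2 to 52.9) and 6 of 12 in replicate 2 (50.0%; 21.1 to 78.9). With IFN and etoposide it was 1 of 26 (3.85%; 0.0973 to 19.6), the 1 being in Parp11. Coding genes had 17.9% and 17.8% in the same libraries, with 7.77% of their length. The interval with IFN and etoposide holds the coding value, as does that of etoposide replicate 1. Those of etoposide replicate 2 and of both etoposide libraries together lie above it (18.4% and 17.9% for coding genes). The list also has more of its length near a start than coding genes have, and no test was made. The interval with IFN and etoposide overlaps that of replicate 1 but not that of replicate 2, of its own run. Within 5 kb the shares were 17 of 35 (48.6%; 31.4 to 66.0) and 6 of 26 (23.1%; 8.97 to 43.6), whose intervals overlap, against 29.4% and 30.0% for coding genes. Usp18 is not among the 40 genes, as no start was listed for it, so its 11 junctions with IFN and etoposide are left out. Of these, the ones at -936, -519 and 1994 bases from its lower end lie within 2 kb of that end. So does the etoposide replicate 2 junction at 1317 bases. The 1 of 26 and its interval thus leave out the list gene with the most junctions in that library, and may depend on this. The 13 junctions near a start came from 7 genes: Parp11 with 4, Tmem140, Herc6 and Slfn2 with 2 each, and Samd9l, Socs1 and Cd274 with 1 each.

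**Figure D5:**
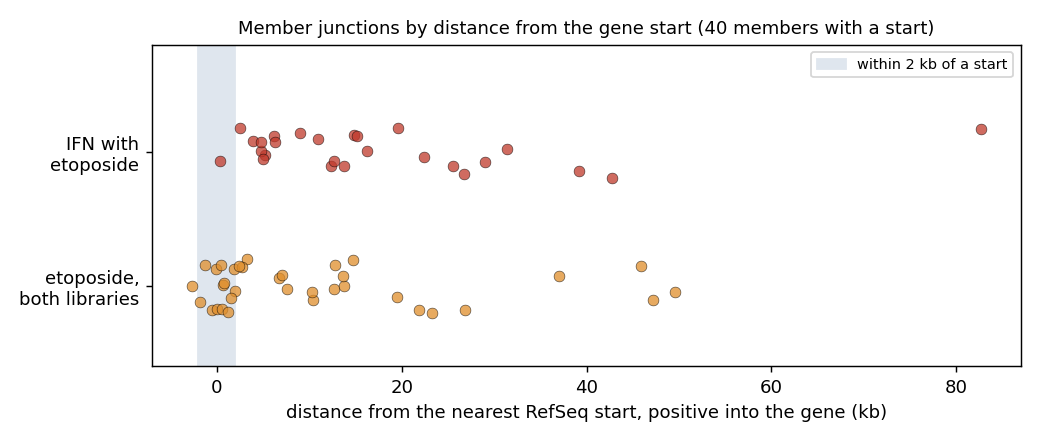
Distance of each junction from the nearest annotated start, in kb and positive into the gene, for the 40 list genes with a start; each point is 1 junction (35 with etoposide, 26 with IFN and etoposide), spread vertically only for legibility, and the band marks 2 kb on each side. The band holds 13 etoposide points and 1 with IFN and etoposide. Usp18 has no listed start and is not shown.

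Inside against outside the body, the list followed its length. Of the 81 junctions, 61 were in a body (75.3%; 64.5 to 84.2), where bodies make up 74.2% of the searched length. Coding genes had 88.9% with 87.3% of length. The split was 30 of 41 with etoposide and 31 of 40 with IFN and etoposide.

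The form of the joints was read from the same 81 junctions. On chromosome 6, 30 of 54 list junctions read toward higher coordinates (55.6%; 41.4 to 69.1), and off it 14 of 27 (51.9%; 31.9 to 71.3). The chromosome 6 total combines unlike genes. Higher-coordinate reads were 14 of 15 in Usp18, 5 of 8 in Herc6, 3 of 3 in Samd9l, 4 of 12 in Parp11 and 4 of 16 in Tmem140. Microhomology of at least 1 base was present in 49 of 54 (90.7%; 79.7 to 96.9) and 25 of 27 (92.6%; 75.7 to 99.1), against 87.8% and 84.2% of all prey. Microhomology of at least 4 bases was present in the list on chromosome 6 in 14 of 54 (25.9%) against 37.6% of all prey there, and in 10 of 27 (37.0%) against 35.3% off it, with no test made. None of the 81 had inserted bases, against 2.15% of all prey on chromosome 6 and 4.28% off it, and the median microhomology was 3 bases in the list and in all prey.

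The rest of the pathway was read from a separate list of 48 genes, 23 for receptors and signalling and 25 for further induced genes. Of these, 28 had at least 1 junction over the 10 libraries, and 26 of the 46 off chromosome 6. Of the 46, 19 were hit in the 2 etoposide libraries, which hit 17.7% and 7.29% of coding genes off chromosome 6. With IFN and etoposide 9 of the 46 were hit, against 7.26% of those coding genes. The share of all genes hit over the 10 libraries and the gene lengths of this list were not compared. Those 46 held 0.358% of prey outside chromosome 6 in etoposide replicate 1 (23 junctions; 0.227 to 0.536), 0.391% in replicate 2 (8; 0.169 to 0.769) and 0.449% with IFN and etoposide (9; 0.205 to 0.850). The 3 values differ by less than their counting intervals. The 2 genes with at least 5 junctions are both on chromosome 6. Irf5, a transcription factor of the interferon response, had 15 and 1 with etoposide and 3 with IFN and etoposide, a ratio of 0.776 with adjusted p = 1.00 by Fisher's exact test. Zc3hav1, which encodes the antiviral RNA-binding protein ZAP, had 17 and 3 with etoposide, 12 in the IFN with etoposide library, 16 in the AsiSI library and 8 where DRB preceded AsiSI. Its ratio was 2.48 with p = 0.0220 and adjusted p = 1.00 by the exact test.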

How the data were processed

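Translocation junctions were sequenced from genomic DNA of 10 pre-B libraries in 8 groups. The authors deposited 1 table per library with a row per junction (per the file headers: position, strand, bait and prey bases). These are positions, not an expression unit, and each row counted as 1 junction. Libraries were made and filtered with the LAM-HTGTS pipeline per the labels' protocols, and the submitters' processing notes name mm10, GRCm38.p2 and bedtools. The deposited junctions numbered 68433, of which 83 off chromosomes 1 to 19, X and Y were left out. Prey within 1 Mb of the bait and in antigen receptor loci was left out of shares, leaving 20682.

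Genes were RefSeq bodies (GRCm38.p6, same main-chromosome coordinates as mm10) plus 5 kb. Comparisons with 1 library on a side used Fisher's exact test (scipy 1.17.1, at least 5 junctions), and etoposide with untreated by limma 3.58.1 (R 4.3.3, voom weights, at least 10 junctions), with Benjamini-Hochberg adjustment over all genes tested and a threshold of 0.05. Shares have exact 95% intervals, and a count of 0 is given the limit of 3 counts. Both tests were also run on simulated counts that vary by counting error alone. Those runs do not cover differences between libraries, and their outcome is not given here. The list as a whole was described by counts, with no test. The members and lists were chosen with earlier results of these data known. Named were all 5 chromosome 6 members, members elsewhere with at least 3 junctions in full, the rest by name, and pathway genes with at least 5. Alternatives varied flank, minimum, denominator, weights, library size, repeated positions and replicates.

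The labels name each untreated library as the control of the etoposide library with its number; the replicates' deviations correlated at 0.383 over 194 genes, and replicate 1 alone shares a run.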

Additional observations from a re-analysis of the deposited data

Results flagged for a closer look

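The share of chromosome 6 prey in the 5 list genes on chromosome 6 differed in the direction of the etoposide effect with and without IFN. Without IFN, etoposide minus its untreated control was -1.25 percentage points in replicate 1 and -0.0130 in replicate 2, and with IFN it was 0.733. Each library without etoposide rests on 1 junction, and the difference was not tested.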

How the results depend on the processing

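With IFN and etoposide against etoposide, Fisher's exact test called 1 gene, Usp18. It called 0 with a minimum of 1 junction (109 genes at an unadjusted p under 0.05) and 0 with the body alone (14). When junctions within 300 bp were counted once, a setting chosen after seeing the data, it called 0 (16). With all prey, which lets antigen receptor junctions into the gene counts as well as the denominator, 680 genes were tested. Of these 13 were called higher, with Usp18 the 1 list gene among them. Leaving out an etoposide replicate gave 0 to 1, the 0 being without replicate 1 (7 at an unadjusted p under 0.05). IFN with etoposide against IFN fell from 4 calls to 1 with a minimum of 1 junction, and IFN against untreated from 2 to between 0 and 3 on leaving out a replicate. No limma setting that tested Tmem140 or Parp11 called either; the body alone and a minimum of 20 junctions tested neither, and 2 kb flanks tested Parp11 alone.

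Etoposide against untreated (limma, 0 calls) gave 61 without weights, 33 with the body alone, 7 with library size from prey outside antigen receptor loci, and 0 to 5 leaving out a library. Parp11 turned from -1.16 to 1.07 with library size from near-bait junctions, under which the median gene shifted from 0.83 to 2.65. With the replicate block the count was 67, 27 higher and 40 lower.

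The share difference off chromosome 6 between IFN with etoposide and etoposide, 0.415 points, was 0.363 with the body alone, 0.355 with 2 kb and 0.442 with 10 kb. Against untreated, etoposide differed by -0.0192 points, and by 0.136 with the body alone, 0.00415 with 10 kb, and -0.222 to 0.183 leaving out a library, so it has no settled direction. On chromosome 6 the IFN difference of 1.58 points was 1.17 with the body alone and 0.824 with Usp18 left out (chosen after seeing the data). Within 2 kb of a start the 3-library share was 23.0% (within 5 kb, 37.7%). The cause of these changes was not tested. Depth limits all libraries without etoposide, at 169 to 1173 prey.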
